A study of Mus musculus with 24 samples.

Results

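GABA-A receptors are chloride channels opened by GABA, each assembled from a ring of subunits, and 7 of the genes that encode these subunits were followed in the hippocampus of Aged mice. The genes were Gabra2, Gabra3, Gabra4, Gabra5, Gabrb1, Gabrb2 and Gabrd, taken by their symbols from the 49568 gene symbols counted in each library. RNA of 24 libraries, 1 mouse each, was sequenced, with 6 mice in each of the groups WTSH, WTEE, KDSH and KDEE. The WTSH group was wild-type and standard-housed, the WTEE group wild-type and enriched, the KDSH group MSK1 KD and standard-housed, and the KDEE group MSK1 KD and enriched. The question was whether housing, the kinase activity of MSK1 or both alter hippocampal RNA in old age.

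All mice were male and 21 to 23 months old. MSK1 KD mice carry a point mutation in their own MSK1 gene (Rps6ka5) that inactivates a kinase domain, in every tissue and from conception, and after a first C57-Bl/6n background and crosses to C57-Bl/6J they were bred as a homozygous line beside a line of WT mice, so a difference between the lines other than the mutation and the mutation itself cannot be told apart. Enriched mice lived in big cages made for rats, given a running wheel and objects to explore, from 18 months of age. WTSH samples 4 and 7 and KDSH sample 6, which the study left out for low correlation within their group (samples 4 and 7 also had ribosomal RNA contamination), are described apart, so the groups held 4, 6, 5 and 6 libraries. The 21 libraries held 27410239 to 71907130 read pairs counted on genes, and a subunit had between 788 and 11860 read pairs in any of them. The MSK1 gene was read in both genotypes, at 23.3 ± 2.10 CPM (counts scaled to library size by TMM; SD, n = 4) in WTSH and 24.1 ± 0.456 (n = 5) in KDSH, and since the mutation changes a single codon its RNA level does not check the genotype labels.

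The alpha subunits decide much of a receptor's pharmacology and place. Receptors with Gabra2 or Gabra3 products sit mainly at synapses, those with the Gabra2 product also along the axon initial segment of pyramidal cells, while receptors with the Gabra5 product, abundant on hippocampal pyramidal cells, lie largely outside synapses. The Gabra4 and Gabrd products pair in extrasynaptic receptors of dentate granule cells that carry a tonic current, and a beta subunit such as the product of Gabrb1 or Gabrb2 completes the GABA binding site in each receptor.

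In the genome (GRCm38) the genes lie on 5 chromosomes. Gabra2 (chr5:70957597-71095849, minus strand), Gabra4 (chr5:71569749-71658308, minus strand) and Gabrb1 (chr5:71658113-72149037, plus strand) share a cluster on chromosome 5, with 473899 bases between Gabra2 and Gabra4. Gabrg1, a subunit gene of this cluster that is not among the 7, lies nearer to Gabra2, with 114979 bases between them. Gabra4 and Gabrb1 start head to head and their gene bodies overlap by 196 bases, of which 46 are exonic in both. Gabra3 lies on chromosome X (chrX:72432681-72656848, minus strand), Gabra5 on chromosome 7 (chr7:57407672-57510059, minus strand), Gabrb2 on chromosome 11 (chr11:42419757-42629028, plus strand) and Gabrd on chromosome 4 (chr4:155384980-155398112, minus strand). Counting ignored strand, and 148 exon bases of Gabra5 (4.98% of its exons) are shared with the antisense gene Gm9962, so reads there cannot be told apart.

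MSK1 is known to phosphorylate the transcription factor CREB, which binds the cAMP response element (CRE), so the promoters were searched for that element. The 250 bases before a start of Gabra2 and of Gabrb2 are shown because these genes had the widest ranges between libraries, that of Gabrb2 with WTEE sample 10 included. They are written 5′ to 3′ on the strand of the gene, from RefSeq on GRCm38.p6, at chr5:71095850-71096099 (minus strand, 70.0% G and C) and chr11:42420190-42420439 (plus strand, 58.8% G and C, the first of 3 listed starts), and hold no annotated exon base.
Gabra2: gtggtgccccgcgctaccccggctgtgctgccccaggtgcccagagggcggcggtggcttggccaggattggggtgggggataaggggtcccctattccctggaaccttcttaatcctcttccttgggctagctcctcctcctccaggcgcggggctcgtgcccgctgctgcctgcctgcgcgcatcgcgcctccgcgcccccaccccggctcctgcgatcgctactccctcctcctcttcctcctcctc
Gabrb2: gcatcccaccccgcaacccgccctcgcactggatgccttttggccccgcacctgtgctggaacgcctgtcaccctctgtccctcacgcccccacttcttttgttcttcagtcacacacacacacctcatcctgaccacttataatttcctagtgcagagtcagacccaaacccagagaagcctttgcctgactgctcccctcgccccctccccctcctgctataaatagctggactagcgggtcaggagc
No letters are in capitals because no match was found. The full CRE (TGACGTCA), its shorter core (TGACG on either strand, which the full site contains) and the EGR motif (GCGTGGGCG on either strand) were each found in 0 of 10 member promoters, which cover 6 of the 7 genes. Over all 32851 promoters of the same length the shares were 1.55%, 17.8% and 0.536%. The absence of a match says only that these letters are not in these windows.

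Levels were compared between genes as CPM per kb of exon. Gabra5 stood highest at 48.0 ± 3.36 (SD, n = 21), followed by Gabra3 at 19.2 ± 2.35, Gabrb2 at 15.4 ± 3.60, Gabra2 at 14.4 ± 4.78, Gabra4 at 13.98 ± 0.854, Gabrb1 at 13.9 ± 1.94 and Gabrd at 10.3 ± 1.48. Gabra5 exceeded Gabra3 in 21 of 21 libraries, on average by 2.55 times, and Gabra3 exceeded Gabrb2 in 21 of 21. With the longest transcript as the length the order of the second pair turned, with Gabra3 above Gabrb2 in 2 of 21. Neighbours among the next 4 genes changed places between libraries, since Gabrb2 exceeded Gabra2 in 12 of 21 libraries, Gabra2 exceeded Gabra4 in 12 and Gabra4 exceeded Gabrb1 in 10 (in 21 with the longest transcript), while Gabrb2 exceeded Gabrb1 in 20. Gabrd was below Gabrb1 in 19 of 21. The 7 genes made up 55.2% (53.7% to 57.2%) of the summed CPM per kb of all 19 GABA-A subunit genes in the files.

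As a share of the summed CPM per kb of the 7 genes, Gabra5 took 35.7%, Gabra3 14.2%, Gabrb2 11.3%, Gabra2 10.5%, Gabra4 10.4%, Gabrb1 10.2% and Gabrd 7.70% on average over the 21 libraries. The summed level itself was 139.4 ± 8.93 in WTSH (n = 4), 130.8 ± 12.1 in WTEE (n = 6), 139.0 ± 3.54 in KDSH (n = 5) and 133.3 ± 11.95 in KDEE (n = 6), with overlapping groups. Relative to its mean, the share of Gabra2 varied most between libraries. It ran from 6.70% to 16.3%, with group means of 11.6% ± 3.01 in WTSH, 8.16% ± 2.19 in WTEE, 11.8% ± 2.15 in KDSH and 11.1% ± 3.43 in KDEE. The share of Gabra5 was 35.4% ± 3.34, 38.3% ± 1.88, 33.9% ± 2.93 and 34.7% ± 2.48 in the same order, and that of Gabra4 lay between 9.32% and 11.7% in every library. The share of Gabrd was 6.66% ± 1.04 in WTSH and 8.86% ± 2.65 in WTEE, where WTEE sample 10 had the highest value of 14.2%. Shares sum to 100 in each library, so a lower share of 1 gene raises the others, and they were not tested.

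**Figure D1:**
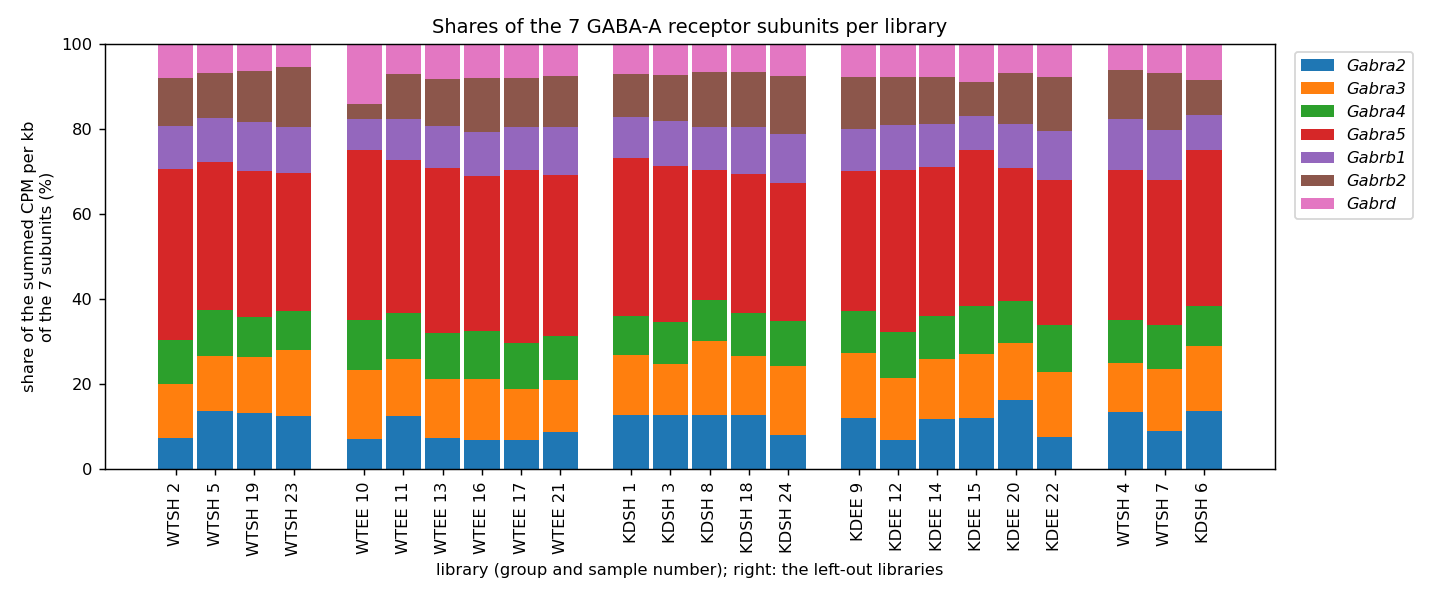
Each bar is 1 library, named by group and sample number, and its 7 segments are the shares (%) of the subunits in their summed CPM per kb of exon; the 3 bars on the right are the left-out libraries. The segment of Gabra5 is the largest in every bar, that of Gabra2 varies between 6.70% and 16.3% in the 21 libraries, and WTEE sample 10 has the widest segment of Gabrd.

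Gabra2 varied most between mice of the same group among the alpha subunits. In WTSH its CPM was 71.5 in sample 2, 145.3 in sample 5, 137.7 in sample 19 and 144.9 in sample 23. In KDSH it was 135.3 in sample 1, 129.9 in sample 3, 135.3 in sample 8, 139.5 in sample 18 and 84.5 in sample 24. One mouse of each standard-housed group thus stood well below its group. In WTEE the lowest CPM was 60.1, the median 71.1 and the highest 135.2, and in KDEE they were 63.7, 115.6 and 189.8. In WTEE the pattern was the other way round, with 5 mice low and sample 11 high, and KDEE spanned the whole range.

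Ordered by Gabra2, the 21 libraries held 9 at 60.1 to 89.8 CPM and 12 at 113.0 or above, and the step between them, 1.259-fold, was the widest with at least 4 libraries on each side. The lower libraries were 1 of WTSH, 5 of WTEE, 1 of KDSH and 2 of KDEE. For the other 6 subunit genes the widest such step was 1.026-fold to 1.083-fold. Without the rule of 4 libraries, chosen after the data were seen, some steps were wider. They were 1.306-fold for Gabra2, 2.775-fold for Gabrb2, 1.385-fold for Gabrd and 1.282-fold for Gabrb1, each with 1 library on a side. Gabra3, Gabra4 and Gabra5 then had 1.08-fold, 1.026-fold and 1.093-fold. Gabra4 and Gabrb1, the other members in its cluster on chromosome 5, showed no step of that size with at least 4 libraries on each side. Gabra4 kept within 77.9 to 93.2 CPM in these libraries. Gabrg1, the subunit gene nearest to Gabra2, is not a member and was not examined for such a step. The SD of log2 CPM within groups was 0.463 for Gabra2, higher than for 99.4% of the 1000 genes of nearest level, and it was 0.507 for Gabrb2, higher than for 99.5% of its own 1000 neighbours. The share was 87.4% for Gabrb1 and between 24.4% and 70.3% for the other 4 members. The summed level of 8 choroid plexus markers was over 1000 CPM in 5 libraries, 3 of which were among the 9 with lower Gabra2, against 6 of the other 16, and its part in the result was not tested. The Gabra2 genotype of each mouse was not analysed here.

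**Figure D2:**
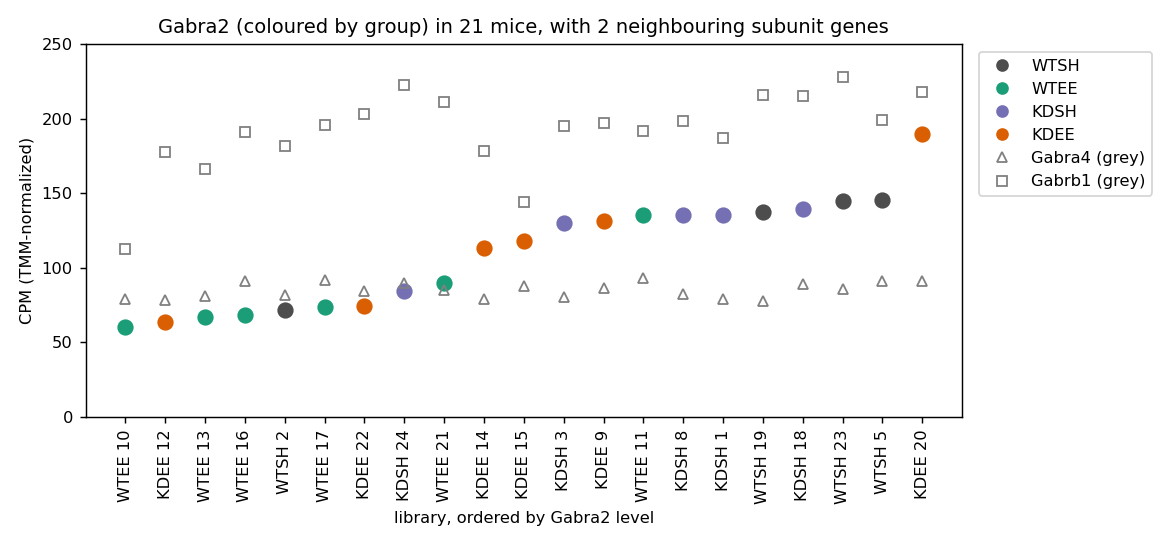
The 21 libraries are ordered along the x axis by Gabra2 CPM (coloured points, 1 colour per group), with Gabra4 (triangles) and Gabrb1 (squares) of the same library in grey. Gabra2 steps from 89.8 to 113.0 CPM between the ninth and the next library, both sides hold mice of all 4 groups, and Gabra4 stays between 77.9 and 93.2 CPM.

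The other alpha subunits were steadier. Gabra3 ranged from 61.9 to 96.5 CPM, with means of 74.8 ± 11.3 in WTSH, 70.1 ± 4.72 in WTEE, 80.1 ± 13.3 in KDSH and 76.4 ± 6.39 in KDEE. Gabra4 means were 84.1 ± 5.61, 86.9 ± 6.12, 84.2 ± 5.16 and 84.6 ± 4.94 in that order. Gabra5 means were 146.2 ± 6.61, 148.9 ± 13.02, 140.0 ± 9.92 and 137.0 ± 4.77, and its values lay between 127.8 and 170.0 CPM. In all 3 genes the groups overlapped.

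The beta subunits Gabrb1 and Gabrb2 moved together across libraries. Gabrb1 means were 206.1 ± 19.9 CPM in WTSH, 178.0 ± 35.1 in WTEE, 203.6 ± 14.8 in KDSH and 186.3 ± 25.6 in KDEE, and Gabrb2 means were 107.3 ± 19.4, 86.5 ± 31.7, 106.9 ± 15.8 and 96.0 ± 18.8. WTEE sample 10 had the lowest value of both, 112.5 for Gabrb1 and 23.97 for Gabrb2, and KDEE sample 15 the next lowest, 144.2 and 66.5. For Gabrb2 the 20 libraries other than WTEE sample 10 lay between 66.5 and 135.4 CPM. Their log2 CPM correlated with r = 0.941 over the 21 libraries and 0.912 without WTEE sample 10, a description of points that share library depth and RNA quality.

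Gabrd, which encodes the delta subunit of tonic receptors, behaved the other way in that library. In WTSH its CPM was 30.0 in sample 2, 26.9 in sample 5, 25.0 in sample 19 and 24.1 in sample 23. In WTEE the lowest value was 29.0, the median 30.3 and the highest 45.4, the last in sample 10. In KDSH it was 27.8, 28.2, 27.1, 27.0 and 30.6 in samples 1, 3, 8, 18 and 24, and in KDEE the lowest, median and highest were 26.7, 29.0 and 32.8. WTEE sample 10 apart, no library exceeded 32.8, and 3 of the 6 WTEE mice lay above the highest WTSH mouse.

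**Figure D3:**
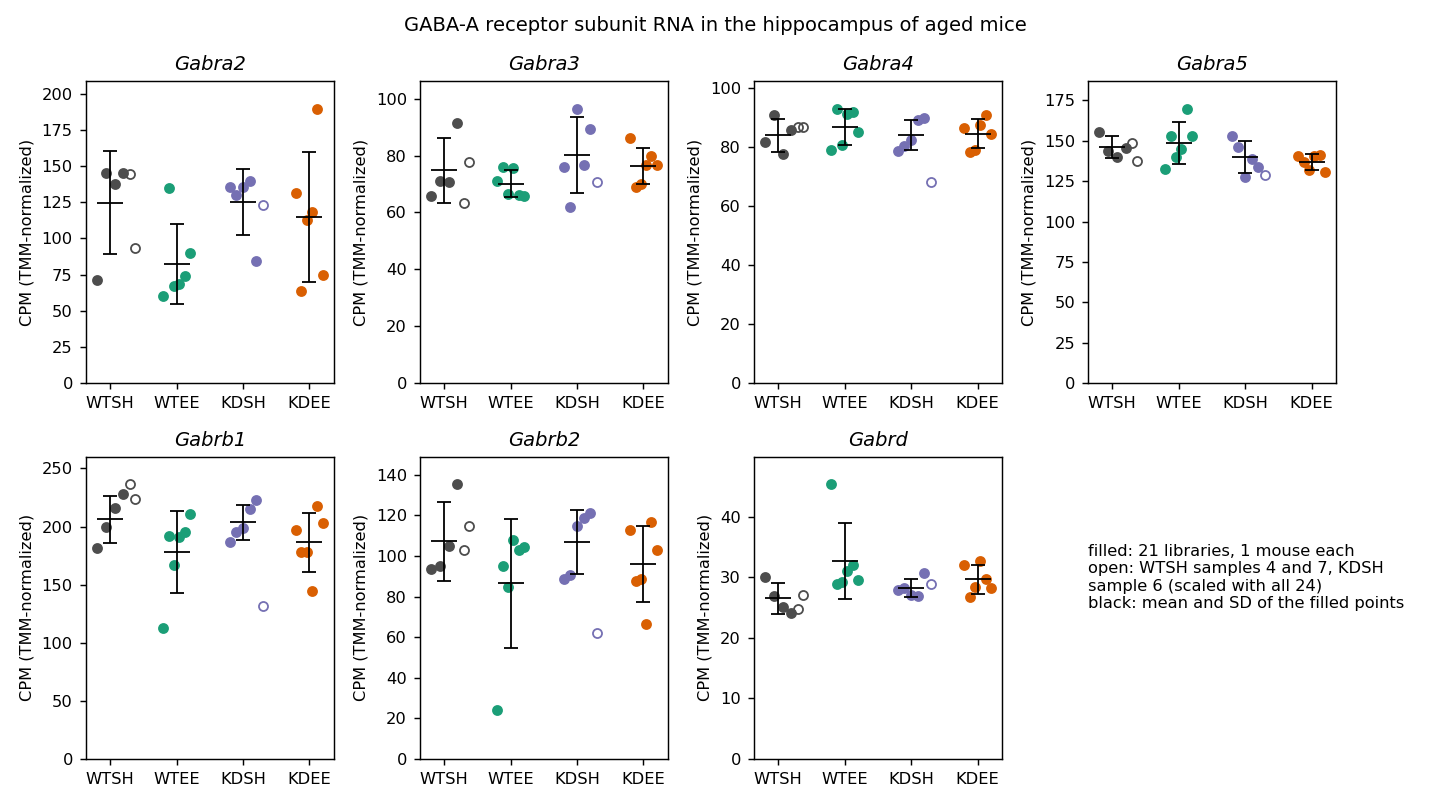
Each panel plots the TMM-normalized CPM of 1 subunit gene by group, with 1 filled point per library (21 in all), the mean and SD in black and the left-out libraries as open points. The groups overlap in every panel, Gabra2 and Gabrb2 have the widest spread within groups on the log2 scale (SD 0.463 and 0.507, the latter with WTEE sample 10 included), and WTEE sample 10 is the lowest point for Gabrb1 and Gabrb2 and the highest for Gabrd.

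WTEE sample 10 also stood apart by transcript length. An exon-length index was computed for each library as the median log2 deviation of 3892 genes with long exons (at least 6758.4 bases) minus that of 3895 genes with short exons (at most 1793 bases). The index was -0.709 in WTEE sample 10 and -0.187 in KDEE sample 15, and between -0.076 and 0.181 in the other 19 libraries. Gabrb1 has the most exon bases of the 7 genes, 13838, and Gabrd the fewest, 2875. Between them lie Gabra2 with 7640, Gabrb2 with 6360, Gabra4 with 6083, Gabra3 with 3924 and Gabra5 with 2974. Gabrb2, whose level was lowest in WTEE sample 10, is thus below the bound for long exons. Group means of the index were 0.071 in WTSH, -0.13 in WTEE, 0.084 in KDSH and -0.025 in KDEE. Gabrb2 and Gabrd correlated with r = -0.79 over the 21 libraries and -0.315 without WTEE sample 10, and Gabrb1 and Gabrd with r = -0.768 and -0.435. For Gabra5 and Gabrd the same values were -0.034 and 0.268.

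**Figure D4:**
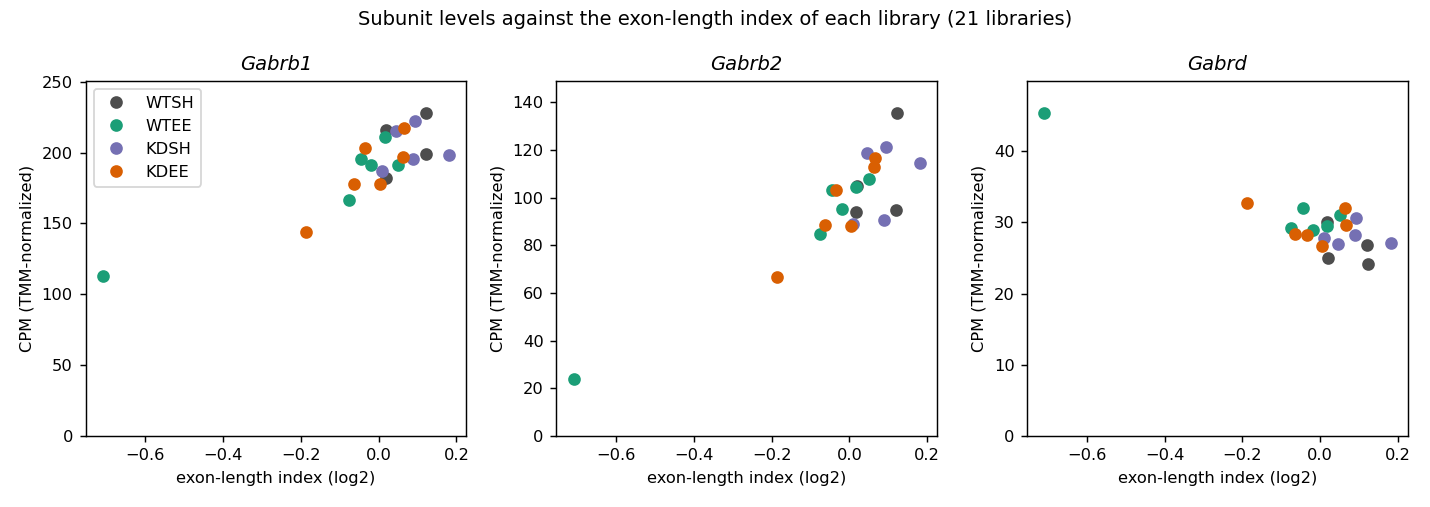
The CPM of Gabrb1, Gabrb2 and Gabrd is plotted against the exon-length index (log2) of each of the 21 libraries, coloured by group. WTEE sample 10, at an index of -0.709, has the lowest Gabrb1 (112.5) and Gabrb2 (23.97) and the highest Gabrd (45.4), and KDEE sample 15, at -0.187, the next lowest Gabrb1 and Gabrb2.

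The genes whose log2 CPM correlated best with each subunit over the 21 libraries, among 15098 genes, were Tnrc6b (0.981) and Usp34 (0.975) for Gabrb1, Faxc (0.989) and Usp33 (0.988) for Gabrb2, and Fahd1 (0.935) and Mcrs1 (0.904) for Gabrd. For Gabra2 they were Cadps2 (0.769) and Uba6 (0.747), for Gabra3 Negr1 (0.859) and Rgs17 (0.854), for Gabra4 Socs5 (0.813) and Kcnj3 (0.805), and for Gabra5 Zbtb18 (0.839) and Epha7 (0.834). The partners of Gabrb1 and Gabrb2 had 8362 to 23677 exon bases, while Fahd1 had 1473 and Mcrs1 3506. Those of Gabra2 had 9566 and 8159, of Gabra3 10506 and 8298, of Gabra4 6416 and 5215, and of Gabra5 6138 and 9884. The median absolute correlation with all genes was 0.555 for Gabrb1 and 0.571 for Gabrb2, against 0.183 to 0.468 for the other members.

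Enrichment in WT mice was examined first (WTEE against WTSH). Of the 7 subunit genes, 0 were called by edgeR's quasi-likelihood test (adjusted p under 0.05 with a log2 fold change beyond 0.38 in either direction), where 0% of the 20187 genes tested were called, and 0 were called by DESeq2, where 0.00529% of genes were. At an unadjusted p under 0.05 there were 2 members, beside 6.55% of all genes. Gabrd was 1.23-fold in WTEE relative to WTSH (log2 fold change 0.302, SE 0.104, 95% interval 0.087 to 0.517, adjusted p = 0.651, edgeR). Gabra2 was at 0.660-fold (log2 fold change -0.600, SE 0.268, interval -1.157 to -0.043, adjusted p = 0.651, edgeR). Gabrb1 and Gabrb2 had log2 fold changes of -0.211 (SE 0.130) and -0.310 (SE 0.261), and those of Gabra3, Gabra4 and Gabra5 were between -0.094 and 0.047. For these 3 of the 7 genes the interval lay within 0.38 of 0, as it did for 45.1% of all genes.

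For 0 of the 7 genes did the WTEE and WTSH values fail to overlap, against 0.986% of all genes. Without WTEE sample 10 the log2 fold change of Gabrd was 0.188 (adjusted p = 1, edgeR) and that of Gabra2 -0.522 (adjusted p = 1), while Gabrb1 and Gabrb2 were at -0.107 and -0.114. With the exon-length index as a covariate, an alternative chosen after the data were seen, they were 0.134 and -0.426 (adjusted p = 1 for both, edgeR). Gabrb1 was then at -0.005, and Gabrb2 had a log2 fold change of 0.119, the opposite direction.

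In MSK1 KD mice the comparison of KDEE with KDSH gave 0 calls among the 7 genes by edgeR, where 0% of genes were called, and 0 by DESeq2, where 0.0866% were. At an unadjusted p under 0.05 there were 0 members, beside 11.6% of all genes. Log2 fold changes lay between -0.155 (Gabrb2, SE 0.245) and 0.074 (Gabrd, SE 0.097), that of Gabra2 was -0.118 (SE 0.251), and 4 of 7 intervals lay within 0.38 of 0, as did those of 47.5% of genes. The KDEE and KDSH values overlapped for all 7 genes, while 1.84% of genes did not overlap. The interval of Gabra2, -0.641 to 0.405, leaves room for changes of the size fitted in WT mice.

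The MSK1 mutation under standard housing (KDSH against WTSH) was next. The number of members called was 0 by edgeR and by DESeq2, and 0% of genes were called by either tool. At an unadjusted p under 0.05 there were 0 members, beside 1% of genes. The fitted differences were the smallest of the 4 pairwise comparisons for Gabra2 (log2 fold change 0.001, SE 0.278), Gabrb1 (-0.017, SE 0.135) and Gabrb2 (-0.006, SE 0.271), and the largest was that of Gabra3 (0.099, SE 0.108). Intervals lay within 0.38 of 0 for 5 of 7 members and 53.5% of genes, the exceptions being Gabra2 (-0.578 to 0.579) and Gabrb2 (-0.569 to 0.558). All 7 genes overlapped between the groups, and 0.644% of genes did not.

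Between enriched mice (KDEE against WTEE) 0 members were called by edgeR, where 0% of genes were called, and 0 by DESeq2, where 0.438% were. At an unadjusted p under 0.05 there was 1 member, beside 4.99% of genes. Gabra5 was at 0.920-fold in KDEE relative to WTEE (log2 fold change -0.120, SE 0.056, interval -0.237 to -0.003, adjusted p = 0.957, edgeR). Its lowest, median and highest CPM were 132.4, 148.7 and 170.0 in WTEE and 130.4, 138.7 and 141.3 in KDEE, so that the groups overlapped while KDEE was the narrower. Gabra2 had a log2 fold change of 0.483 (SE 0.240, interval -0.016 to 0.982, adjusted p = 0.957, edgeR), and the other 5 genes lay between -0.140 (Gabrd) and 0.150 (Gabrb2). Without WTEE sample 10 these were -0.022 and -0.043, and Gabra2 was at 0.282 without KDEE sample 20. The intervals of 5 of 7 members lay within 0.38 of 0, beside 55% of genes. The values overlapped for all 7 members, and 0.624% of genes did not overlap.

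**Figure D5:**
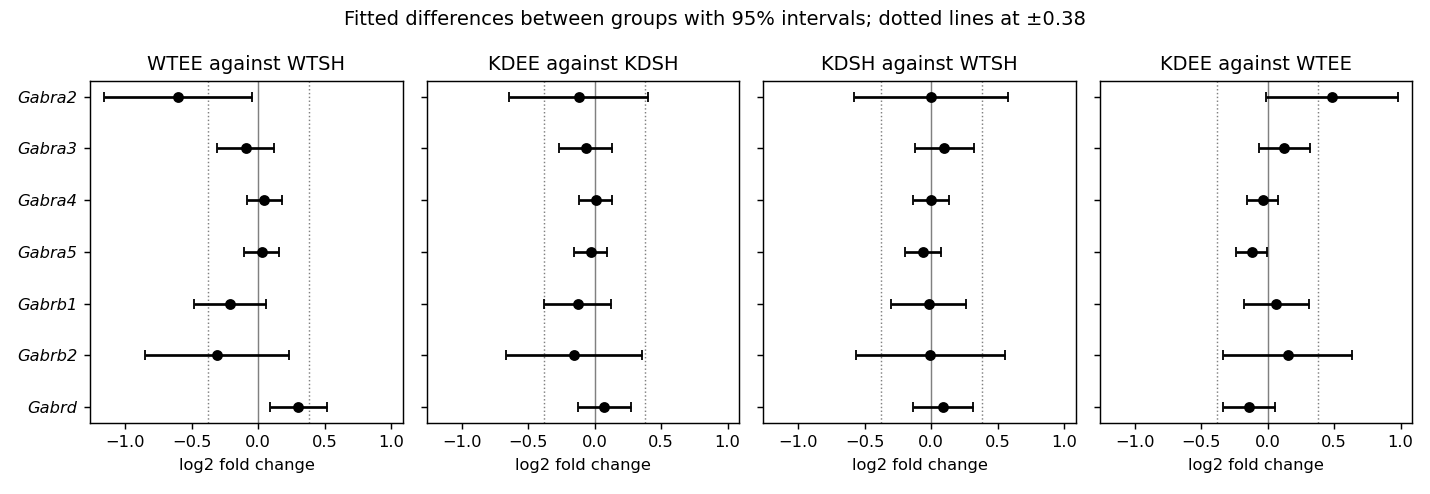
Points are the fitted log2 fold changes of the 7 subunit genes in the 4 pairwise comparisons and bars their 95% intervals; dotted lines stand at 0.38 on either side of 0. The intervals of Gabra2 and Gabrb2 are the widest in each panel, and the intervals that leave out 0 are those of Gabra2 and Gabrd for WTEE against WTSH and of Gabra5 for KDEE against WTEE.

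Averaged over the genotypes, enriched against standard housing gave 0 member calls by edgeR (0.00495% of genes, 1 gene, were called) and 0 by DESeq2 (0.233% of genes). At an unadjusted p under 0.05 there was 1 member, beside 18.9% of genes, and this was Gabrd (log2 fold change 0.188, SE 0.071, adjusted p = 0.228, edgeR), at 0.134 without WTEE sample 10 and 0.063 with the exon-length index as a covariate. Averaged over the housings, MSK1 KD against WT gave 0 calls by edgeR and by DESeq2, where 0% of genes were called, and 1 member at an unadjusted p under 0.05, beside 1.9% of genes. This was Gabra5 (log2 fold change -0.092, SE 0.043, adjusted p = 1, edgeR).

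Whether enrichment acted differently in MSK1 KD and in WT mice (the interaction) was tested directly. For 0 of the 7 genes was it called by edgeR, where 0% of genes were called, or by DESeq2, where 0.0762% were, and 0 members had an unadjusted p under 0.05, beside 3.26% of genes. For Gabra2 the difference was 0.482 on the log2 scale (SE 0.368, interval -0.282 to 1.246, adjusted p = 1, edgeR), and for Gabrd it was -0.228 (SE 0.142, interval -0.523 to 0.068, adjusted p = 1). That of Gabrd was -0.108 without WTEE sample 10 and -0.142 with the exon-length index, and that of Gabra2 was 0.281 without KDEE sample 20. No difference between the genotypes in the effect of enrichment was called for these genes, and the size of difference that could have been detected was not tested.

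The genes that make, move and clear GABA were read beside the receptors. Of 8 such genes 0 were called in any comparison by edgeR, where at most 0.00495% of all genes were. Between enriched mice 4 of 8 had an unadjusted p under 0.05, all higher in KDEE, beside 4.99% of all genes. Among them were Slc6a11, which encodes a glial GABA transporter (log2 fold change 0.230, SE 0.063, adjusted p = 0.224), Abat, the GABA transaminase (0.195, SE 0.088, adjusted p = 0.956), and Aldh5a1, which encodes the next enzyme of GABA breakdown (0.120, SE 0.051, adjusted p = 0.885). In WTEE against WTSH 0 of 8 passed that p, and Gad1, whose product makes GABA, had a log2 fold change of 0.017 (SE 0.081). Between enriched mice 3 of 6 astrocyte markers had an unadjusted p under 0.05, all higher in KDEE, again beside 4.99% of genes, among them Aqp4 (0.256, SE 0.078). Of the 6 markers 5 had a log2 fold change above 0, and Gfap was lower in KDEE (-0.098, SE 0.103). The summed astrocyte markers were 4596 ± 340.1 CPM in KDEE and 4178 ± 316.2 in WTEE (ranges 4094 to 4988 and 3719 to 4646), and in bulk RNA more cells of a type and more RNA per cell cannot be told apart.

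Among 13 genes of receptor scaffolds and trafficking, 0 were called by edgeR in any comparison, where at most 0.00495% of all genes were. At an unadjusted p under 0.05, 1 was higher and 1 lower in WTEE against WTSH, beside 6.55% of all genes. In KDEE against KDSH 2 were lower at that p, beside 11.6% of all genes. Gabarap, whose product binds GABA-A receptors and autophagosomes, had a log2 fold change of 0.291 (SE 0.134, adjusted p = 0.651, edgeR) in WTEE against WTSH, and Mdga1, a brake on inhibitory synapse adhesion, had -0.414 (SE 0.161, adjusted p = 0.651). Mdga1 had -0.358 in KDEE against KDSH (SE 0.151, adjusted p = 0.397), and Shisa7, a receptor partner, had -0.304 (SE 0.131, adjusted p = 0.399). Among 5 genes of GABA-B receptors and their partners 0 were called, again beside at most 0.00495% of all genes. Of the 5, 1 passed an unadjusted p of 0.05 in KDEE against KDSH, beside 11.6% of all genes. It was Kctd8 (0.297, SE 0.093, adjusted p = 0.350). Both chloride transporters, Slc12a5 (-0.117, SE 0.107, WTEE against WTSH) and Slc12a2 (-0.031, SE 0.196), stayed without a call. Of the 12 other GABA-A subunit genes 9 passed the filter on low counts and 0 were called, beside the same share of all genes. Gabrg1, the next gene to Gabra2 on chromosome 5, had a log2 fold change of 0.20 in KDEE against WTEE (SE 0.079, adjusted p = 0.740, edgeR). Of the 9 genes, 1 had an unadjusted p under 0.05 there, beside 4.99% of all genes.

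In the comparison of the housing effect between genotypes, Slc6a11 had a difference of 0.230 (SE 0.096, adjusted p = 1, edgeR), Kctd8 of 0.375 (SE 0.135, adjusted p = 0.907) and Gabre, a subunit gene near the detection limit at a mean of 0.457 CPM, of 1.281 (SE 0.595, adjusted p = 1). Averaged over genotypes, enriched against standard housing gave Gabarap 0.230 (SE 0.092, adjusted p = 0.232, edgeR), Mdga1 -0.386 (SE 0.110, adjusted p = 0.186) and Shisa7 -0.252 (SE 0.096, adjusted p = 0.227). None of these differences met the threshold for a call, nor did Slc6a11 for MSK1 KD against WT averaged over the housings (0.115, SE 0.048, adjusted p = 1) or Kctd8 for KDEE against WTEE (0.192, SE 0.088, adjusted p = 0.957). These genes are named for an unadjusted p under 0.05. Over all genes the share with such a p was 3.26% for the interaction and 18.9% for housing. It was 1.9% for genotype and 4.99% for KDEE against WTEE.

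The cell types that carry these receptors were checked through marker lists. Summed over 10 interneuron markers the level was 1271 ± 75.3 CPM in WTSH, 1348 ± 102.1 in WTEE, 1256 ± 36.6 in KDSH and 1338 ± 81.8 in KDEE. Dentate granule cell markers, from the cells in which Gabra4 and Gabrd act together, summed to 462.3 ± 87.2, 456.3 ± 27.7, 471.0 ± 52.9 and 440.7 ± 27.9. The summed level of both lists overlapped between the groups. In WTEE against WTSH, 2 of the 10 interneuron markers had an unadjusted p under 0.05, beside 6.55% of genes, and these were Pvalb (log2 fold change 0.405, SE 0.162, adjusted p = 0.651, edgeR) and Lhx6 (-0.167, SE 0.060, adjusted p = 0.651). For housing averaged over genotypes 3 were higher and 0 lower at that p, beside 18.9% of genes. KDEE against WTEE had Lhx6 higher (0.177, SE 0.053) and Npy lower (-0.322, SE 0.151), beside 4.99%. KDEE against KDSH had 0, beside 11.6%. Oligodendrocyte markers summed to 6468 ± 1298 CPM in WTSH, 7213 ± 597.1 in WTEE, 6164 ± 951.4 in KDSH and 7504 ± 645.9 in KDEE, and 5 of 6 had an unadjusted p under 0.05 and were higher in KDEE against KDSH (11.6% of all genes had such a p) and in enriched against standard housing averaged over genotypes (18.9%). Choroid plexus markers, of a tissue next to the hippocampus, ranged from 27.2 to 9810 CPM between libraries, and 8 of 8 had an unadjusted p under 0.05 in KDEE against KDSH, beside 11.6% of genes and 0 subunit genes. Scaled with all 24 libraries, their sum was 9606 CPM in KDEE sample 12 and 2647 in KDEE sample 14. It was at most 116.8 in the other KDEE libraries and 105.7 in KDSH. The 8 genes mark 1 tissue and are not 8 separate results. The part of these cell types in the subunit values was not tested.

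The 3 left-out libraries were scaled together with the 21 others. Gabra2 was 144.6 CPM in WTSH sample 4, 93.2 in WTSH sample 7 and 122.8 in KDSH sample 6, against 58.5 to 184.6 in the others. KDSH sample 6 had less Gabra4 (68.3 CPM) than any of the 21 and, within its own group, less Gabrb1 (131.9, against 181.3 to 216.0) and Gabrb2 (62.0, against 86.3 to 117.6), with an exon-length index of -0.173. WTSH samples 4 and 7 had more Gabrb1 (236.4 and 223.9) than any of the 21, with indices of 0.21 and 0.263. Gabrd lay within its group's range in all 3, at 24.8, 27.0 and 28.8 CPM. With all 24 libraries in the fit, 0 members were called in any comparison, where at most 15 of the 19817 genes tested were called.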

How the data were processed

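Hippocampal poly(A) RNA of 24 mice was measured by paired-end sequencing. The authors trimmed reads with Skewer, aligned them to GRCm38 with STAR 2.5 and counted them with HTSeq 0.6.1p1, and deposited, for each gene symbol, the raw counts of uniquely aligned read pairs, not normalized and counted on both strands. No column of values was left unused, and 0 pairs of files were identical. Groups came from the sample titles, and the 21 libraries the study kept were the main set.

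Counts were scaled by TMM, and edgeR 4.0.16 (R 4.3.3) supplied the quasi-likelihood test, all 4 groups in 1 model, after its default filter on low counts, with Benjamini-Hochberg adjustment over 20187 genes. Calls needed an adjusted p under 0.05 and a log2 fold change beyond 0.38 in either direction, as in the study. DESeq2 1.42.0 was the alternative tool. CPM were divided by the kb of exon in GENCODE M21, in which 47139 of 49568 symbols matched 1 gene, and log2 CPM used a prior count of 2. Figures used matplotlib 3.10.9. On simulated counts over 19911 genes, the test for WTEE against WTSH recovered 181 of 200 genes that had been given log2 fold changes of 1. Smaller changes, such as those fitted for the members, were not simulated, so their recovery is not known.

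The members and lists were chosen with earlier results of these data known, so no p value was adjusted over a list alone. Named genes are the 7 members, the list genes with an unadjusted p under 0.05 or, with none, those of the highest level, the 2 genes most correlated with each member, and Rps6ka5. Some genes that this rule names are not reported here. Alternatives were other size factors, no filter, a filter of 10 counts in every library, no fold threshold, all 24 libraries, only the groups compared, a robust fit, other lengths and denominators for shares, and each library left out in turn; the exon-length index as covariate was added after the data were seen. Depth ranged from 27410239 to 71907130 pairs over the 21 libraries and was at least 15800187 over all 24. PCR copies are not told apart from molecules in these counts. The p values measure the spread between mice of 1 line each. Mice were kept several to a cage, with more in enriched than in standard cages. The cage of each mouse is not among the labels used, so cage could not be modelled.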

Additional observations from a re-analysis of the deposited data

Results flagged for a closer look

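Of 28 sets of values (7 genes in 4 groups), 4 held a library whose distance from the nearest other exceeded Dixon's critical value, a test that flags about 1 set in 20 by chance. In WTSH, sample 2 had a Gabra2 level of 71.5 CPM, with the nearest other mouse at 137.7. In KDSH, sample 24 had a Gabra2 level of 84.5 CPM, with the nearest at 129.9. Both values lie among the 9 lower Gabra2 libraries of all 4 groups, so that they are far from their own group and not from the series.

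In WTEE, sample 10 was far from its group in 2 genes in opposite directions. Its Gabrb2 level was 23.97 CPM, with the nearest at 84.7, and its Gabrd level was 45.4 CPM, with the nearest at 32.0. This library also had the lowest exon-length index, -0.709, and the part of transcript length in these values was not tested beyond the fit with that index as a covariate.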

How the results depend on the processing

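In every alternative run the number of members called was 0, in all 7 comparisons except for the fit of only the groups compared, which was run for the 4 pairwise ones. Few genes of any kind were called in these runs. By edgeR it was at most 15 of 19817, with all 24 libraries and for housing averaged over genotypes. By DESeq2 it was at most 118 of 26970, for KDEE against WTEE. No paired analysis was possible because no mouse number occurs in more than 1 group. Some fold changes turned direction, most of them near 0 but also that of Gabrb2 with the exon-length index, and the cause was not tested. For KDSH against WTSH the log2 fold change of Gabra2 was -0.001 with DESeq2, 0.000 with RLE size factors, -0.012 with no filter on low counts and -0.002 with the exon-length index as covariate, and that of Gabra4 was 0.000 with DESeq2, -0.010 with no filter, -0.069 with all 24 libraries and -0.001 with the index. With the index, Gabrb2 turned from -0.310 to 0.119 for WTEE against WTSH, from -0.155 to 0.134 for KDEE against KDSH and from 0.150 to -0.024 for KDEE against WTEE, Gabrd to -0.008 for KDEE against KDSH and Gabrb1 to -0.037 for KDEE against WTEE. Leaving out 1 library at a time gave log2 fold changes for KDEE against KDSH of -0.319 to 0.005 for Gabra2, -0.143 to 0.008 for Gabra3, -0.016 to 0.031 for Gabra4 and -0.062 to 0.003 for Gabra5. For KDSH against WTSH it gave -0.196 to 0.113 for Gabra2, -0.035 to 0.039 for Gabra4, -0.077 to 0.031 for Gabrb1 and -0.069 to 0.123 for Gabrb2. For KDEE against WTEE it gave -0.035 to 0.129 for Gabrb1 and -0.043 to 0.236 for Gabrb2, and for WTEE against WTSH -0.151 to 0.018 for Gabra3 and -0.008 to 0.060 for Gabra5. The averaged comparisons and the interaction turned too. For housing, Gabra5 (-0.003) was at 0.001 with at least 10 counts in every library, 0.007 with all 24 libraries, 0.026 with the index and -0.019 to 0.017 with 1 library left out, and Gabrb2 (-0.233) was at 0.126 with the index. For genotype, Gabrb1 (0.024) was at -0.052 with all 24 libraries and -0.034 with the index, Gabrb2 (0.072) at -0.031 and Gabrd (-0.026) at 0.028 with the index, and leaving out 1 library gave -0.036 to 0.001 for Gabra4, -0.027 to 0.056 for Gabrb1, -0.025 to 0.138 for Gabrb2 and -0.048 to 0.031 for Gabrd. For the interaction, Gabra4 (-0.041) was at 0.030 with all 24 libraries and Gabrb1 (0.083) at -0.007 with the index, and leaving out 1 library gave -0.079 to 0.102 for Gabra3, -0.016 to 0.147 for Gabrb1 and -0.035 to 0.242 for Gabrb2. The pathway genes outside the 7 members were not recomputed under the alternatives. For WTEE against WTSH, leaving out 1 library gave -0.798 to -0.518 for Gabra2 (unadjusted p 0.00486 to 0.093) and 0.188 to 0.366 for Gabrd (0.00391 to 0.0338), and the index gave -0.426 (0.148) and 0.134 (0.0792).

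The mean Gabrb1 level of KDSH was 186.8 CPM with all 24 libraries. Shares moved with their definition. Without division by length they were 14.8% for Gabra2, 10.3% for Gabra3, 11.7% for Gabra4, 19.7% for Gabra5, 26.1% for Gabrb1 and 4.13% for Gabrd. With the length of the longest transcript they were 12.6% for Gabra3, 12.8% for Gabra4, 8.54% for Gabrb1 and 14.9% for Gabrb2, which puts Gabrb2 above Gabra3. With all GABA-A subunit genes in the denominator they were 5.83% for Gabra2, 7.83% for Gabra3, 5.73% for Gabra4, 19.7% for Gabra5, 5.65% for Gabrb1, 6.25% for Gabrb2 and 4.24% for Gabrd. A member had at least 304 read pairs in every library, and how far depth limits the intervals apart from the spread between mice was not tested.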
